A study of Homo sapiens with 30 samples.

Results

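The genes described here are the inhibitors of cyclin-dependent kinases (CDKs), with CDKN1A at their head, in U2OS cells, a human osteosarcoma line. Members were taken by gene symbol: every probe whose platform gene symbol is CDKN1A, CDKN1B, CDKN1C, CDKN2A, CDKN2B, CDKN2C or CDKN2D, in all 10 sample groups. Of these 7 genes, 6 had at least 1 named probe, 13 probes in all, among 18665 genes with a named probe, and CDKN2C had none. After the filter on dim probes, 5 members were tested in the first experiment (of 12419 genes) and 4 in the second (of 11040).

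The data are 30 single-colour Illumina bead arrays. Retroviruses built on the pSIREN vector brought short hairpin RNAs (shRNAs) into the cells. After 2 days the cells received 5 Gy of gamma rays from a caesium source or a mock treatment, and RNA was taken 4 h later. In the first experiment, 8 groups of 3 arrays received a control shRNA, an shRNA against NFBD1 (gene MDC1, called hairpin b here), an shRNA against p53, or hairpin b plus the p53 shRNA (called both shRNAs below), with and without the 5 Gy. In the second experiment, 3 arrays with another NFBD1 shRNA (the second hairpin, NFBD1a in the labels) stood against 3 arrays of their own control shRNA, all at 0 Gy. All cells were of 1 line, and every group carried a virus, the controls included. The labels do not say that the 3 arrays of a group came from separate infections, so the p-values measure the spread between these arrays, which may be technical. Each array detected 34.1% to 40.3% of the 48802 probes at a detection p under 0.01. Of the 10 mesenchymal and osteoblast markers 8 were detected on all 24 arrays of the first experiment, and so were 3 of 4 epithelial markers (EPCAM, CDH1 and KRT18, not KRT19). Of 4 blood markers PTPRC and HBA1 were detected on none of these arrays, HBB on 12 and CD14 on 17. Of 3 neural and HEK293-type markers NEFL was detected on all 24, and NEFM and ELAVL4 on none.

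CDK inhibitors bind the kinases that drive the cell cycle and hold them inactive. The CIP/KIP family, p21 (CDKN1A), p27 (CDKN1B) and p57 (CDKN1C), acts on several cyclin-CDK complexes. The INK4 family, p16 (CDKN2A), p15 (CDKN2B), p18 (CDKN2C) and p19 (CDKN2D), acts on the D-cyclin kinases CDK4 and CDK6. CDKN1A is the classical transcriptional target of p53 after DNA damage, and NFBD1 is a chromatin-bound scaffold of the damage checkpoint.

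The windows around the annotated start sites of the 3 members whose levels changed in a comparison below are shown because their transcripts moved in different directions. They come from RefSeq (GRCh38.p14), each 300 bases long and written 5′ to 3′ on the gene's strand, with matches to the GC box GGGCGG on either strand in capitals. CDKN1A lies at chr6:36678464-36678763 (plus strand), CDKN1B at chr12:12717118-12717417 (plus strand) and CDKN2D at chr19:10568930-10569229 (minus strand).
CDKN1A: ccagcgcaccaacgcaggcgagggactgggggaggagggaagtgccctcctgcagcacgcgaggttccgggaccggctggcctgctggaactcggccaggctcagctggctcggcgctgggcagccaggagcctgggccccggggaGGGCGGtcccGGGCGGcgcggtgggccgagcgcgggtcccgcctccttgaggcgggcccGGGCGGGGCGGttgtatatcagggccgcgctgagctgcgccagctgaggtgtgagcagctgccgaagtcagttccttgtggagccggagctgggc
CDKN1B: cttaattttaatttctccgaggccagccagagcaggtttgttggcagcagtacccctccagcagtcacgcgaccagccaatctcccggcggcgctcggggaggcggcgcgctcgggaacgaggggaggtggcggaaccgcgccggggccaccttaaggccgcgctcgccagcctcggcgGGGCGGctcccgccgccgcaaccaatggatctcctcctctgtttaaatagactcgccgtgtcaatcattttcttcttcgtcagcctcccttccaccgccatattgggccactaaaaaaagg
CDKN2D: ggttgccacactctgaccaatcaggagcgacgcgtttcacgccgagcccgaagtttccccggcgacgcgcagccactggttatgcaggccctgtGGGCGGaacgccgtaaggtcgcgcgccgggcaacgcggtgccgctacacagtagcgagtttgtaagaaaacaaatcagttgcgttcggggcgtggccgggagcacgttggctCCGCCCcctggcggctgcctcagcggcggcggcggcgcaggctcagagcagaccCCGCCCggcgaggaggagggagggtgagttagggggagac
The CDKN1A window held 4 GC boxes, of which the last pair overlap, the CDKN1B window 1 and the CDKN2D window 3. A GC box occurred in 45% of the 35116 windows of the same length. The CCAAT box (CCAAT) matched 3 times in the CDKN1B window, once in that of CDKN2D and not in that of CDKN1A, against 34.6% of all windows with a match. None of the 3 windows held the p53 half-site consensus (6.63% of all windows), TATAAA (11.5%), TTTGAA (15.2%), TTTCGCGC (0.515%) or TTTGGCGC (0.652%) on either strand. These matches describe letters in a short window and say nothing about binding.

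CDKN1A was read by 2 probes, both detected on 30 of 30 arrays. The brighter probe (ILMN_1784602) served as the gene's value, and the dimmer one (ILMN_1787212) was followed beside it. With the control shRNA at 0 Gy the brighter probe's log2 intensity was 12.06, 11.34 and 11.67 on the 3 arrays, and 13.43, 13.29 and 13.51 after 5 Gy. With hairpin b it was 12.01, 11.66 and 11.41 at 0 Gy and 13.39, 12.98 and 13.29 after 5 Gy. The irradiated arrays of both treatments all lay above the unirradiated ones, and the 2 treatments overlapped at either dose. Doses did not overlap for 8.58% of the tested genes with the control shRNA and for 14.3% with hairpin b.

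With the p53 shRNA the brighter CDKN1A probe gave 10.53, 10.39 and 10.36 at 0 Gy and 11.42, 11.98 and 11.60 after 5 Gy. With both shRNAs it gave 10.92, 10.54 and 10.54 at 0 Gy and 11.60, 11.89 and 11.63 after 5 Gy. In these bulk RNA samples fewer cells with the transcript and less of it per cell cannot be told apart. Groups with and without the p53 shRNA did not overlap for 8.37% of the tested genes against the control at 0 Gy. On hairpin b this share was 10.2% at 0 Gy and 9.49% at 5 Gy, and it was highest against the control at 5 Gy. For CDKN1A all 12 arrays with the p53 shRNA lay below the arrays of the same dose without it. The mean levels ran, from low to high, from 10.43 ± 0.09 (SD, n = 3) with the p53 shRNA at 0 Gy and 10.67 ± 0.22 with both shRNAs at 0 Gy, through 4 groups at 11.67 to 11.70, to 13.22 ± 0.21 with hairpin b and 13.41 ± 0.11 with the control shRNA after 5 Gy. The 4 groups in the middle were the irradiated p53-depleted cells, with and without hairpin b, and the unirradiated cells with the control shRNA or hairpin b, and their arrays overlapped. The 2 highest groups overlapped as well, and the 2 lowest were separated by a narrow margin (highest array 10.53, lowest array 10.54).

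**Figure D1:**
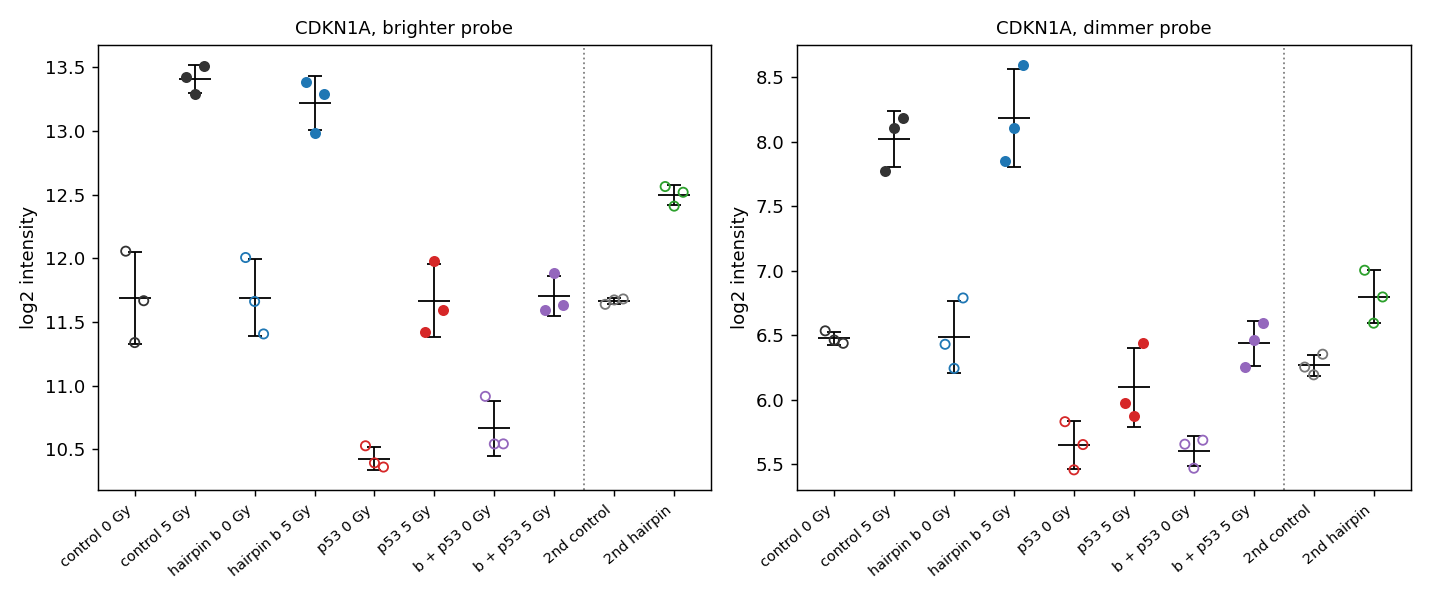
Log2 intensity of CDKN1A (vertical axes, arrays normalized within each experiment) for the brighter and the dimmer probe, by sample group. Points are single arrays (open at 0 Gy, filled at 5 Gy), bars are the group mean and its SD (n = 3), the dotted line separates the 2 experiments, and b is the NFBD1 hairpin b. The irradiated p53-depleted arrays of the brighter probe, 11.42 to 11.98, sit at the level of the unirradiated controls.

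CDKN1A rose after irradiation under all 4 shRNA treatments. It rose 3.30-fold with the control shRNA (log2 1.72 ± 0.18 SE, limma adjusted p = 8.4e-06), where 0.588% of the tested genes were called changed. It rose 2.89-fold with hairpin b (1.53 ± 0.18, adjusted p = 3.98e-05, with 0.757% called), 2.36-fold with the p53 shRNA (1.24 ± 0.18, adjusted p = 0.0012, with 0.25% called) and 2.05-fold with both (1.04 ± 0.18, adjusted p = 0.00721, with 0.201% called). Each 0 and 5 Gy pair of one replicate number shared a chip, and the 12 within-pair log2 changes ran from 0.68 to 1.95. Over the 4 treatments the mean rise was 1.38 (95% interval 1.19 to 1.57, adjusted p = 9.71e-10, with 1.8% called). The call with both shRNAs was lost without replicate 2 at 0 Gy (0.98, adjusted p = 0.0819), without replicate 2 at 5 Gy (0.95, 0.095) and without replicate 3 at 0 Gy (0.98, 0.0652).

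On the dimmer CDKN1A probe the rise passed the threshold in the cells without the p53 shRNA and missed it in those with it. Its log2 intensity after 5 Gy was 7.78, 8.11 and 8.18 with the control shRNA and 7.85, 8.11 and 8.60 with hairpin b, against 6.54, 6.46 and 6.44, and 6.43, 6.24 and 6.79, at 0 Gy. It was 5.83, 5.46 and 5.65 with the p53 shRNA at 0 Gy and 5.98, 5.87 and 6.44 after 5 Gy, and 5.66, 5.47 and 5.69 with both shRNAs at 0 Gy and 6.25, 6.47 and 6.59 after 5 Gy. The irradiated arrays again lay above the unirradiated ones in every treatment. Among all tested genes the doses were apart for 8.58% (control shRNA), 14.3% (hairpin b), 8.29% (p53 shRNA) and 7.76% (both shRNAs). The rise of the dimmer probe was 2.91-fold with the control shRNA (log2 1.54, limma adjusted p = 3.5e-05) and 3.24-fold with hairpin b (1.70, adjusted p = 1.06e-05). With the p53 shRNA the log2 change was 0.45 (adjusted p = 1) and with both shRNAs 0.83 (adjusted p = 0.0858), and neither passed the threshold.

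The difference between the radiation responses with and without the p53 shRNA was tested as an interaction. On the brighter CDKN1A probe it was -0.49 ± 0.18 as a mean over cells with and without hairpin b (95% interval -0.87 to -0.11, unadjusted p = 0.0144, limma adjusted p = 0.998, with 0.0161% of genes called), and -0.48 ± 0.26 in cells without hairpin b (adjusted p = 1). Within the chips that held all the groups needed, the second value was -0.47 and -0.26. On the dimmer probe the mean interaction was -0.98 ± 0.18 (unadjusted p = 2.5e-05, adjusted p = 0.0831), and -1.09 ± 0.26 without hairpin b (adjusted p = 1). No adjusted value passed 0.05, and over the alternatives tried the adjusted p for the mean interaction ran from 0.0568 to 1. In the interaction without hairpin b limma called 0% of the 12419 genes, with 210 at an unadjusted p under 0.05. The brighter probe stood near the top of the arrays, with 200 to 2207 of the 48802 probes brighter than it in the first experiment, against 5575 to 15191 for the dimmer probe, and whether this bears on the smaller interaction of the brighter probe was not tested.

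CDKN1A was lower with the p53 shRNA in every comparison, on the brighter probe. It fell 2.40-fold against the control shRNA at 0 Gy (log2 -1.26 ± 0.18 SE, limma adjusted p = 0.00134, with 0.33% of genes called) and 3.35-fold at 5 Gy (-1.74, adjusted p = 2.39e-05, with 0.701% called). On the background of hairpin b it fell 2.03-fold at 0 Gy (-1.02, adjusted p = 0.0154, with 0.153% called) and 2.86-fold at 5 Gy (-1.52, adjusted p = 0.000127, with 0.395% called). Within chips these differences were -1.53 and -1.27 against the control at 0 Gy and -2.00 and -1.53 at 5 Gy. On hairpin b they were -0.75 and -0.86 at 0 Gy and -1.39 and -1.66 at 5 Gy. As a mean over the 4 pairs of groups the fall was 2.61-fold (-1.39, 95% interval -1.58 to -1.20, adjusted p = 2.01e-09, with 3.48% called). On the dimmer probe the 2 unirradiated comparisons missed the threshold (-0.83, adjusted p = 0.0558, and -0.88, adjusted p = 0.0578), and the 2 irradiated ones passed it (-1.92 and -1.75). On hairpin b at 0 Gy the call was also lost without replicate 1 (-0.87, adjusted p = 0.161) or 2 (-1.04, 0.0592) of hairpin b, or replicate 2 (-0.96, 0.147) or 3 (-0.96, 0.101) of the doubly depleted cells.

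No change of CDKN1A with hairpin b passed the threshold. The MDC1 transcript itself fell with hairpin b (mean of the 4 pairs of groups -1.40 ± 0.12 SE on the log2 scale) and with the second hairpin (-2.41 ± 0.08). For CDKN1A the log2 difference with hairpin b was 0.00 at 0 Gy, -0.19 at 5 Gy, and 0.24 and 0.04 in cells with the p53 shRNA, each ± 0.18 (SE), with limma adjusted p-values of 0.83 to 0.999. The groups overlapped in 3 of these 4 comparisons and were narrowly apart in p53-depleted cells at 0 Gy, where 11.2% of the tested genes were apart. The shares of genes called in these comparisons were 0.443%, 1.16%, 0.507% and 0.709%. Averaged over the 4 pairs of groups the difference was 0.02 (95% interval -0.17 to 0.21, adjusted p = 0.94, with 5.66% called). The radiation response of CDKN1A differed with hairpin b by -0.19 ± 0.26 in cells without the p53 shRNA, and by -0.20 ± 0.18 over cells with and without it (adjusted p = 1 and 0.985). Both of those interactions called 0% of the 12419 genes in limma, with 385 and 702 at an unadjusted p under 0.05. The dimmer probe gave the opposite sign in both of these interactions (0.15 and 0.27), in the comparison with the control at 5 Gy (0.16) and with the p53 shRNA at 0 Gy (-0.04).

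With the second hairpin CDKN1A was higher. The brighter probe read 11.64, 11.67 and 11.68 in the second control and 12.56, 12.41 and 12.52 with the second hairpin. The groups did not overlap, as was so for 42% of the tested genes in this comparison, and the rise was 1.78-fold (log2 0.83 ± 0.07 SE, limma adjusted p = 4.81e-05) in a comparison that called 26.2% of the tested genes. The dimmer probe rose 1.45-fold (0.53 ± 0.10, adjusted p = 0.00635), from 6.25, 6.19 and 6.35 to 7.01, 6.59 and 6.80. In a joint fit over all 30 arrays, added after the values had been seen, the change with the second hairpin exceeded that with hairpin b at 0 Gy by 0.85 ± 0.24 (adjusted p = 0.0476, with 2.67% of 12667 genes called). That call was lost on leaving out 10 of the 12 arrays in turn, namely all 6 of the second experiment, replicates 1 and 3 of the control and replicates 2 and 3 of hairpin b (adjusted p 0.0768 to 0.178). It was also lost on the dimmer probe (0.54, adjusted p = 0.369). The hairpins were run in different experiments on different chips, so hairpin and experiment cannot be told apart in this difference beyond what each experiment's own control removes, and the MDC1 fall differed between them by -1.005 ± 0.31 (adjusted p = 0.0864).

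CDKN1B, the p27 inhibitor, was read by 2 probes detected on 30 of 30 arrays. In the first experiment the brighter of them (ILMN_2196347) gave 8.36, 8.67 and 8.83 with the control shRNA at 0 Gy and 8.03, 8.22 and 8.26 after 5 Gy. These did not overlap, as was so for 8.58% of the tested genes in this comparison. Over the 12 same-chip pairs it was lower after irradiation in 11, by up to 0.57 on the log2 scale, and higher by 0.02 in 1 pair with hairpin b. The mean log2 change over the 4 treatments was -0.30 (95% interval -0.47 to -0.12), which missed the threshold (limma adjusted p = 0.102). It passed when chip (adjusted p = 0.00934) or replicate number (adjusted p = 0.00417) entered as a block. The other probe (ILMN_1722811) gave the same mean change (-0.30, limma adjusted p = 0.123), but the probes differed within treatments. On the other probe the doses overlapped with the control shRNA (-0.25). They were apart with hairpin b (-0.50), as were 14.3% of the tested genes. Its changes were -0.28 with the p53 shRNA and -0.19 with both. On ILMN_2196347 none of the 4 single irradiation comparisons passed (-0.45, -0.20, -0.29 and -0.24, adjusted p 0.709 to 1).

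CDKN1B fell with the second hairpin. The probe read in that experiment (ILMN_1722811) gave 7.93, 7.997 and 7.84 in the second control and 7.30, 7.34 and 7.37 with the second hairpin. The other probe gave 7.05, 6.94 and 7.05, and 6.41, 6.22 and 6.37. Neither probe's groups overlapped, again as for 42% of the tested genes, and the fall was 1.50-fold on the first (log2 -0.59 ± 0.07 SE, limma adjusted p = 0.000316) and 1.60-fold on the other (-0.68 ± 0.08, adjusted p = 0.000376). CDKN1B thus moved opposite to CDKN1A in this comparison. With hairpin b the mean change of CDKN1B was 0.06 (95% interval -0.12 to 0.24), and with the p53 shRNA 0.02 (-0.16 to 0.20). The difference between the 2 hairpins was -0.67 ± 0.22 and missed the threshold (adjusted p = 0.129).

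CDKN2D, the p19 member of the INK4 family, fell after irradiation. Its kept probe (ILMN_1748883) gave 7.40, 7.65 and 7.78 with the control shRNA at 0 Gy and 6.95, 6.90 and 6.78 after 5 Gy. With hairpin b it gave 7.06, 7.11 and 7.43, then 6.99, 6.81 and 6.55, and with both shRNAs 7.33, 7.32 and 7.55, then 6.57, 6.84 and 7.09. With the p53 shRNA it gave 6.93, 7.71 and 7.70, then 6.82, 6.92 and 7.09, and only here did the doses overlap, through replicate 1 at 0 Gy. The doses were apart for 8.58% of the tested genes with the control shRNA, 14.3% with hairpin b and 7.76% with both. CDKN2D was lower in 12 of 12 same-chip pairs, with changes of -0.999 to -0.0695 on the log2 scale. The mean fall was 1.47-fold (log2 -0.55 ± 0.09 SE, 95% interval -0.74 to -0.36, limma adjusted p = 0.000658).

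Taken singly, the 4 irradiation comparisons of CDKN2D did not pass (-0.73, -0.42, -0.50 and -0.56 with the control shRNA, hairpin b, the p53 shRNA and both, adjusted p 0.0971 to 0.82). With the control shRNA the value passed with the replicate number as a block (adjusted p = 0.0297) or the chip as a block (0.0366). The fall differed with the p53 shRNA by 0.04 (95% interval -0.34 to 0.42) and with hairpin b by 0.13 (-0.25 to 0.51), averaged over the other shRNA. The p53 shRNA changed CDKN2D by 0.04 on average over the 4 pairs of groups (-0.15 to 0.23), and hairpin b by -0.17 (-0.36 to 0.02). With the second hairpin it went from 7.16, 7.39 and 7.38 to 6.997, 7.03 and 7.11, a fall of 1.20-fold (log2 -0.26 ± 0.08, adjusted p = 0.0395). That call was lost without replicate 2 or 3 of the second control or without any 1 of the 3 second-hairpin arrays (adjusted p 0.0562 to 0.122). The other CDKN2D probe (ILMN_1740597) was detected on no array.

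CDKN2B, the p15 member, was read from 1 of its 3 probes (ILMN_2376723), and the other 2 were detected on no array. Its log2 intensity ran from 6.09 to 6.85 over the 24 arrays of the first experiment, and no 2 groups that were compared were apart. The mean change after irradiation was 0.05 (95% interval -0.13 to 0.24), with the p53 shRNA -0.02 (-0.20 to 0.17) and with hairpin b 0.02 (-0.17 to 0.21). With the second hairpin it was -0.09 (-0.27 to 0.08, limma adjusted p = 0.412). No comparison called CDKN2B.

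CDKN1C, the p57 inhibitor, had 1 probe (ILMN_1718565), detected on all 24 arrays of the first experiment at log2 intensities of 5.20 to 6.17. The mean change after irradiation was 0.22 (95% interval 0.03 to 0.41, limma adjusted p = 0.422), upward in 10 of 12 same-chip pairs and not called. The mean change was -0.16 with the p53 shRNA (-0.34 to 0.03) and -0.07 with hairpin b (-0.26 to 0.12). In the second experiment the probe was detected on 2 of 3 control arrays and on none with the second hairpin, so it was not tested there. Its log2 intensities overlapped, from 4.63 to 4.91 in the control and from 4.59 to 4.70 with the second hairpin. CDKN2A, which encodes p16 and the ARF protein and whose p16 product U2OS cells are known to lack, had 3 probes. A pair of them was detected on no array and the third on 2 of the 30 (control shRNA and p53 shRNA, both after 5 Gy and both on chip 3), so that CDKN2A was not well above background and was not tested.

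**Figure D2:**
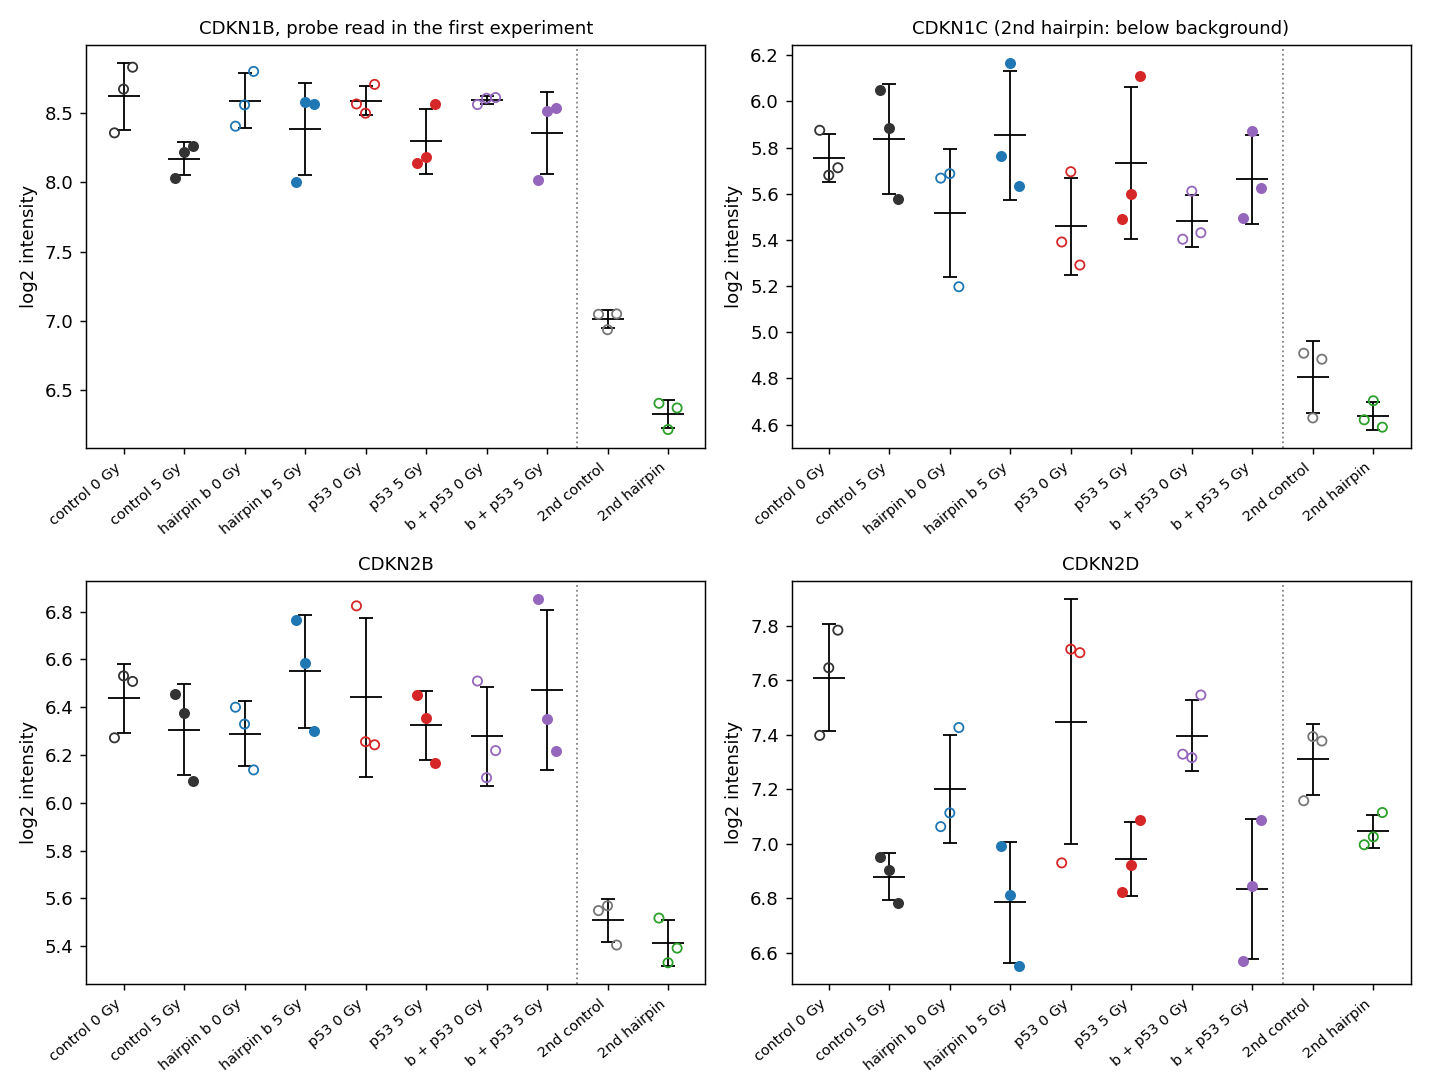
Log2 intensity of CDKN1B, CDKN1C, CDKN2B and CDKN2D (vertical axes, normalized within each experiment) by sample group. Points are arrays (open at 0 Gy, filled at 5 Gy), bars are the mean and its SD (n = 3), and the dotted line separates the experiments. CDKN1B is shown on ILMN_2196347 in both experiments, although its value in the second was read from ILMN_1722811. CDKN2D sits at 6.55 to 7.09 after 5 Gy and mostly above that at 0 Gy, while CDKN2B has no order by group within the first experiment.

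Set side by side after irradiation, the CDK inhibitors went different ways. CDKN1A rose in 12 of 12 same-chip pairs and CDKN2D fell in 12 of 12, CDKN1B was lower in 11 and CDKN1C higher in 10, and CDKN2B was higher in 7 and lower in 5. Over all 4 treatments 2 of the 5 tested members were called, CDKN1A upward and CDKN2D downward, against 1.8% of all tested genes. With the chip or the replicate number as a block CDKN1B was called too, 3 of the 5, against 3.07% and 3.09% of all tested genes. Averaged over the 4 pairs of groups, CDKN1A alone was called with the p53 shRNA, against 3.48% of all tested genes, and none of the 5 with hairpin b, against 5.66%. With the second hairpin 3 of the 4 tested members were called, CDKN1A upward and CDKN1B and CDKN2D downward, against 26.2% of the tested genes.

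**Figure D3:**
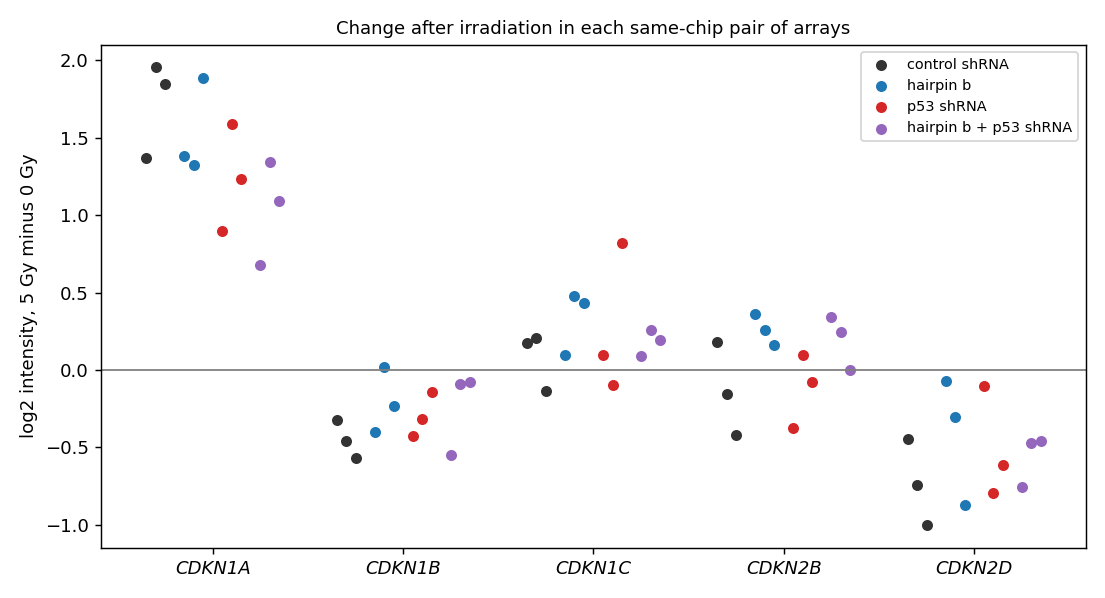
Change after irradiation (vertical axis, log2 intensity at 5 Gy minus 0 Gy) of the 5 tested members in each of 12 pairs of arrays that share a replicate number and a chip. Colours mark the shRNA treatment. All CDKN1A points lie between 0.68 and 1.95 and all CDKN2D points between -0.999 and -0.0695.

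**Figure D4:**
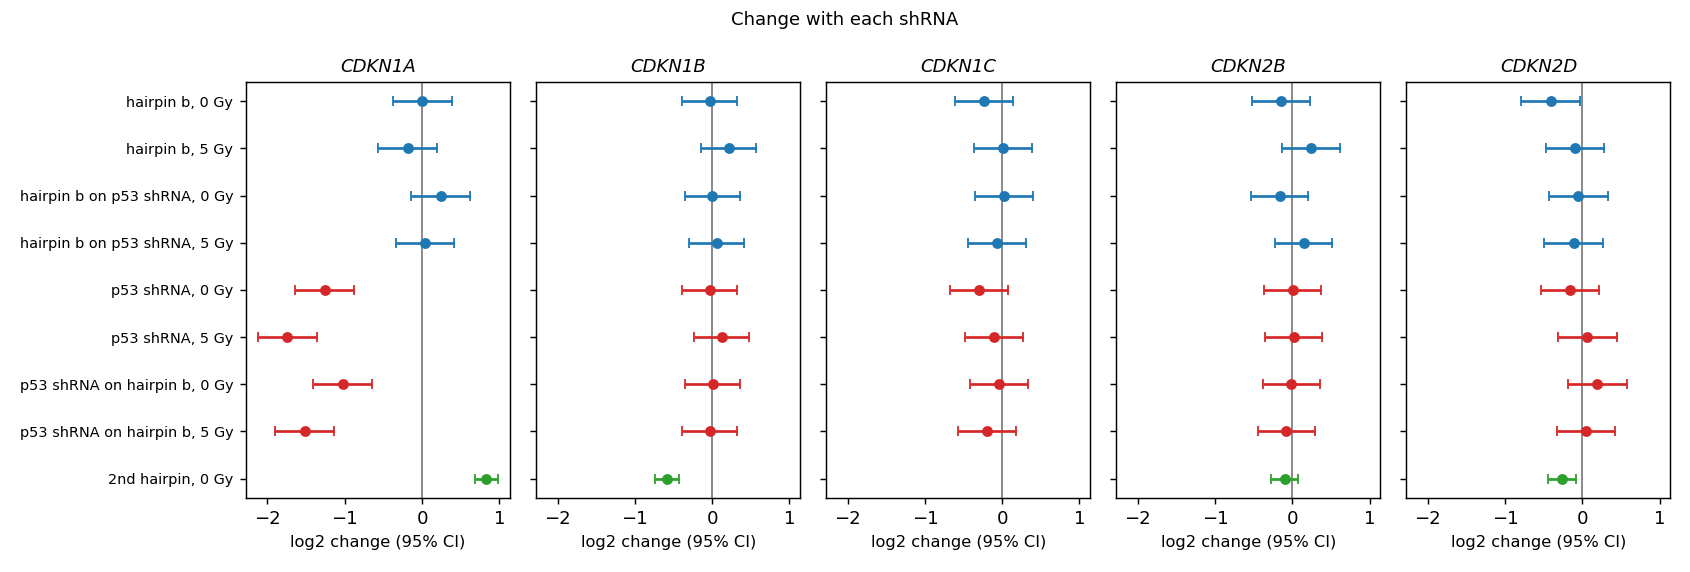
Change in log2 intensity (horizontal axes) of the tested members with hairpin b, the p53 shRNA and the second hairpin, with 95% intervals from limma. CDKN1A lies below 0 in the 4 p53 shRNA comparisons, around 0 with hairpin b and at 0.83 with the second hairpin, while CDKN1B lies at -0.59 with the second hairpin.

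The genes whose profile over the 24 arrays of the first experiment was most like that of CDKN1A, among 12414 others, were SESN1 (Pearson r = 0.977), TP53INP1 (0.958), F2RL2 (0.951), TNFRSF14 (0.947) and GDF15 (0.936). SESN1 encodes a sestrin, TP53INP1 a p53-induced nuclear protein, F2RL2 a protease-activated receptor, TNFRSF14 a receptor of the tumour necrosis factor family and GDF15 a secreted stress cytokine. These arrays share their groups and chips, so the values are a description. After irradiation TP53INP1 rose nearly as much with the p53 shRNA (log2 1.44) as with the control shRNA (1.48). TNFRSF14 went from 0.70 with the control shRNA to 0.61 with the p53 shRNA, F2RL2 from 0.75 to 0.41, SESN1 from 1.33 to 0.72 and GDF15 from 1.54 to 0.69. On hairpin b the rise of TP53INP1 was 1.38 without and 1.02 with the p53 shRNA. Differences between these genes were not tested, and the interaction without hairpin b called 0% of the tested genes in limma. The CDK inhibitors themselves did not follow CDKN1A as closely, with r of 0.55 for CDKN1C, 0.10 for CDKN2B, -0.52 for CDKN1B and -0.61 for CDKN2D.

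The kinases and cyclins that the inhibitors act on were followed in a list of 19, of which 17 were tested. After irradiation with the control shRNA none rose and 3 fell, where 0.588% of all tested genes were called: CCNB1, the mitotic cyclin B1 (log2 -1.07), CCNA2, cyclin A2 (-0.70), and CDC25C, a phosphatase that activates CDK1 (-0.52). CCNA2 and CCNB1 fell with hairpin b (-0.74 and -0.76) and with the p53 shRNA (-0.56 and -1.01), and CCNA2 with both (-0.61). In these 3 irradiation comparisons 0.757%, 0.25% and 0.201% of all tested genes were called. The median log2 change of the list was -0.11 with the control shRNA, -0.20 with hairpin b, -0.0075 with the p53 shRNA and -0.06 with both, against 0.00, -0.02, 0.01 and 0.00 for all tested genes. With the p53 shRNA 1 of 17 rose, CDC25A, a phosphatase that activates CDK2 (0.55 at 5 Gy against the control, where 0.701% of all genes were called, and 0.30 over the 4 pairs of groups, where 3.48% were). With hairpin b none of the 17 was called by limma, and over the 4 pairs of groups 5 had an unadjusted p under 0.05, against 5.66% of all tested genes called and 18% at that p.

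Among 17 tested pocket proteins, E2F factors and their partners, RB1, the retinoblastoma protein, was lower with hairpin b (-0.76 at 5 Gy, limma adjusted p = 0.0207, and -0.55 over the 4 pairs of groups), and E2F5 was higher (0.39 over the 4 pairs). All tested genes were called at a share of 1.16% at 5 Gy and 5.66% over the 4 pairs. With the second hairpin E2F5 went the other way (-0.36) and RB1 was not called. None of the 17 was called by limma after irradiation or with the p53 shRNA, and in either mean comparison 4 had an unadjusted p under 0.05, a p that 8.95% of all tested genes had after irradiation and 15.3% with the p53 shRNA. Among 21 tested regulators of the inhibitors' levels, SMAD3, a mediator of TGF-beta signalling, was lower with hairpin b (-0.66 at 5 Gy and -0.46 over the 4 pairs) and after irradiation (-0.32 over the 4 treatments), as were FOXO4, a forkhead factor, with hairpin b at 5 Gy (-0.84) and CDC20, an activator of the anaphase-promoting complex, after irradiation (-0.28). These were 2 of 21 with hairpin b at 5 Gy, against 1.16% of all tested genes, and 2 of 21 after irradiation, against 1.8%. Over the 4 pairs of hairpin b 1 of 21 was called, near the 5.66% of all tested genes. With the p53 shRNA none of the 21 was called by limma, and over the 4 pairs of groups 6 had an unadjusted p under 0.05, against 15.3% of all tested genes.

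With the second hairpin more genes of these lists were called, in a comparison that called 26.2% of all tested genes. Of the 17 cyclins and kinases 4 rose and 6 fell, among them CCND1, cyclin D1 (log2 -0.71 ± 0.06 SE), CDK6 (0.68 ± 0.08), CDC25C (-0.48) and CCNA2 (-0.44). Of 18 pocket proteins and E2F genes 1 rose and 6 fell, with E2F2 at -0.43, TFDP1, a dimer partner of E2F, at -0.47, RBL1, the p107 pocket protein, at -0.52 and E2F5 at -0.36. Of 21 regulators 2 rose and 3 fell, near the share of all tested genes called (26.2%). SKP2, which marks p27 for destruction, fell 1.66-fold (-0.73 ± 0.06, limma adjusted p = 5.48e-05), beside the fall of the CDKN1B transcript. ID1, an inhibitor of helix-loop-helix factors, was at -0.32, CBX7, a Polycomb protein, at 0.38 and MYC at 0.26. Cell type markers moved as well: 5 of 8 tested mesenchymal and osteoblast markers were called (4 down, 1 up), and their summed intensity was 14748 to 14965 in the second control and 11468 to 12291 with the second hairpin. CDH2, one of the markers that fell (-0.97), also fell with hairpin b (-0.86 to -1.28). The epithelial marker CDH1 rose (0.53) while the summed intensity of the 3 tested epithelial markers overlapped between the groups. NEFL, the 1 tested neural and HEK293-type marker, fell (-0.41, limma adjusted p = 0.0308). The part of these shifts in the values of the inhibitors was not tested.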

How the data were processed

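RNA of 30 samples of U2OS cells was read on Illumina bead arrays, 6 on each of 5 chips. Per the file headers, the authors deposited each probe's non-normalized intensity together with its detection p-value on every array. A further 60 columns were not used. They also deposited a matrix of processed log2 values whose making is not stated (median 6.951 on each array, same order of probes as the signal, direction as in the signal), and this matrix served as an alternative. Its sorted values differed by at most 0.00104 between arrays, as quantile normalization leaves them, a step that the main normalization below also takes. Scanner settings: not given in the sources used here. The platform annotation paired 27577 of the 48802 probes with a single gene symbol, 13 with several and 21212 with none. The RefSeq gene table matched 27540 of them, which gave current symbols and, with its promoter table (GRCh38.p14), the windows printed.

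Titles gave the groups and replicate numbers, and the array labels gave the chips. Each experiment went separately through limma's neqc (limma 3.58.1, R 4.3.3, offset 16), which infers the background from detection p-values, corrects for it, quantile-normalizes and takes log2. Probes with a detection p under 0.01 on at least 3 arrays were kept, and the kept probe of highest mean stood for its gene. Group means were fitted with lmFit and eBayes (16 and 4 residual degrees of freedom), p-values were adjusted over all genes by Benjamini-Hochberg, and a gene was called at an adjusted p under 0.05. The fit, over all groups of an experiment and for 20 comparisons, was tested on simulated data first. Fits of single probes, and of the 2 hairpins together over 30 arrays, were added after the values had been seen. The number of arrays limits the precision.

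Arrays of one replicate number at 0 and 5 Gy share a chip per the labels. Over genes, the correlation of same-number deviations from the group means was over 0.1 in all 3 pairs for 9 of 13 comparisons (0.10 to 0.63); in the other 4 (irradiation with the control shRNA, the p53 shRNA against the control at both doses, and the second hairpin) it ran from -0.14 to 0.34. The text names all members with every named probe, MDC1, the 5 genes most correlated with CDKN1A and up to 4 called genes of each pathway list and comparison. The members and lists were chosen with earlier results of these data known. The p53 transcript is not reported here.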

Additional observations from a re-analysis of the deposited data

Results flagged for a closer look

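In unirradiated cells the change of CDKN1A with the second hairpin exceeded that with hairpin b by 0.85 on the log2 scale (limma adjusted p = 0.0476 in a fit over all 30 arrays, 95% interval 0.37 to 1.34). It rose in 3 of 3 second-hairpin arrays above every array of their control, while the arrays with hairpin b overlapped those of their own control. Groups did not overlap for 42% of the tested genes with the second hairpin and for 11.9% with hairpin b at 0 Gy. The SD was 0.02 in the second control and 0.08 with the second hairpin, against 0.36 with the first control and 0.30 with hairpin b. This fit was added after the values had been seen. The call was lost without any 1 of 10 of the 12 arrays (adjusted p up to 0.178), under median scaling, with no filter on dim probes, with only the arrays compared and on the dimmer probe (0.54, adjusted p = 0.369). Groups of 3 arrays were not tested for single arrays that stand apart.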

How the results depend on the processing

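For CDKN1A, 211 of 226 values under another normalization, filter, probe or block kept their side of the threshold, as did 217 of 234 that left out 1 array. Sign changes came only in uncalled values, and 4 of them, all on the dimmer probe, moved by more than the replicate spread (hairpin b against control at 5 Gy 0.16, hairpin b on p53 shRNA at 0 Gy -0.043, and the irradiation by hairpin b interactions 0.15 and 0.27). The mean rise after irradiation, the mean fall with the p53 shRNA and the rise with the second hairpin stayed called in every setting. Median scaling moved the median of all genes by up to 0.28. Calls lost under it were irradiation in p53-depleted cells without (1.23) and with (1.04) hairpin b, the p53 shRNA on hairpin b at 0 Gy (-1.12) and the second hairpin minus hairpin b (0.73). Using only the arrays compared, calls were lost for the same 4 (1.24, 1.04, -1.02 and 0.85) and for the p53 shRNA against control at 0 Gy (-1.26); this fit has fewer arrays. With no filter on dim probes, which tests more genes, the second hairpin minus hairpin b was lost (0.85). The dimmer probe lost irradiation in p53-depleted cells without (0.45) and with (0.83) hairpin b, the p53 shRNA at 0 Gy against the control (-0.83) and on hairpin b (-0.88), and the second hairpin minus hairpin b (0.54). Leaving out 1 array gave 0.95 to 1.16 for irradiation with both shRNAs, -1.17 to -0.87 for the p53 shRNA on hairpin b at 0 Gy, and 0.67 to 1.03 for the second hairpin minus hairpin b. The cause of the other losses was not tested.

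Uncalled values of other members that changed sign by more than the replicate spread were CDKN2B with irradiation on hairpin b (-0.052, median scaling), CDKN2D with the p53 shRNA at 5 Gy (-0.065, median scaling) and in its irradiation by p53 interaction without hairpin b (-0.034 to 0.36 leaving out 1 array, the low value without p53 shRNA replicate 1 at 0 Gy), and CDKN1B with hairpin b at 5 Gy (-0.13, other probe) and in its irradiation by hairpin b interactions (-0.030 with median scaling, -0.0036 with the mean of the kept probes, -0.25 and -0.079 on the other probe). Relative to the shifted median of all genes, the 3 values under median scaling were 0.25, 0.027 and 0.18. CDKN2D with the second hairpin was no longer called with median scaling (-0.28), with no filter on dim probes (-0.26) or with all 30 arrays normalized together (-0.27). Without the filter CDKN2A was called in 0 of 20 limma comparisons (lowest adjusted p = 0.456).

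With the replicate number as a block, 1.41 to 2.68 times as many genes were called in the 15 comparisons of the first experiment other than interactions (chip block 1.48 to 2.40 times), for example 384 against 224 for the mean of irradiation, 995 against 432 for the p53 shRNA and 1374 against 703 for hairpin b; for CDKN1A no call changed with either block. Median scaling gave 1.91 times fewer, 139 and 169 for these 3, and 1561 against 2896 for the second hairpin. Over all settings the counts ran from 17 to 108 for irradiation with the control shRNA (73 in the report), 17 to 224 with hairpin b (94), 3 to 50 with the p53 shRNA (31) and 3 to 45 with both (25); from 0 to 93 (41), 15 to 211 (87), 0 to 51 (19) and 3 to 124 (49) for the p53 shRNA; from 2 to 132 (55), 10 to 319 (144), 0 to 138 (63) and 0 to 221 (88) for hairpin b; and from 0 to 8 (2) for the mean irradiation by p53 interaction. Probes near background limit CDKN1C and CDKN2A.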
